A study of Mus musculus with 10 samples.

Results

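The genes described are 10 components of the circadian clock, Arntl, Clock, Npas2, Per1, Per2, Per3, Cry1, Cry2, Nr1d1 and Dbp, out of 41388 genes listed in the deposited files of a mouse ear skin RNA-seq series. They were chosen by name, with earlier results of these data known. All 10 were found by their Ensembl identifiers and all 10 passed the filter on low counts, which kept 16830 genes. Each of the 10 libraries is labelled as skin from a whole ear of a C57Bl/6 mouse, with 4 libraries in the Littermate group (genotype label WT) and 6 in the Experimental group. The sample labels give the Experimental genotype as NaV1.8+ Jak1F/F, whereas the series text gives NaV1.8+ Il4raF/F, and the files do not settle which is right. Both groups received MC903 (calipotriol, a vitamin D analogue that inflames the skin), and the series text gives 1 nM applied daily for 12 days, so the series holds no untreated skin. NaV1.8 is a sodium channel of sensory neurons, whose cell bodies lie in ganglia outside the skin, and its gene Scn10a had 2 reads in all 10 libraries together. Whole-gene reads of Il4ra (217 ± 23.4 CPM in Littermate, SD, n = 4, and 189 ± 46.8 in Experimental, n = 6) and of Jak1 (309 ± 25.4 and 297 ± 18.4 CPM) come from all cells of the ear, so they do not check a deletion in neurons. CPM are counts per 1000000 reads of the library, here scaled with TMM size factors. No label states the hour of day at which ears were taken, nor any batch.

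The clock is a loop of transcription that runs in nearly every cell, skin cells included, with a period of about a day. ARNTL (also called BMAL1) pairs with CLOCK, or with its relative NPAS2, and switches on genes through E-box sequences in their promoters, among them the Per and Cry genes, Nr1d1 and Dbp. PER and CRY proteins return to the nucleus and inhibit ARNTL and CLOCK, while NR1D1 (REV-ERB alpha) represses the Arntl and Npas2 genes. The RNAs of the activators and of the repressors therefore peak at different times of day in tissues whose clock is running. DBP is an output factor that binds D-box sequences, which occur in Per genes. Per1 and Per2 are also switched on directly by hormones, glucocorticoids among them.

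Promoter sequences of RefSeq (build GRCm38.p6) covered 9 of the 10 genes with 13 start sites, and some of them hold elements through which the loop is known to act. The 250 bases before each start were searched on both strands for the E-box CACGTG, its variant CACGTT, the D-box TTANGTAA, the cyclic AMP element TGACGTCA and the ROR element core TAGGTCA. The E-box was found for Per1 and Cry1, the variant E-box for Cry1, Cry2 and Nr1d1, and the D-box for Per3, at 2 places, whereas the other 2 motifs were found for none of the 9. Arntl, Clock, Npas2 and Dbp had no match to any of these motifs in the stretches searched. Among 32851 mouse promoters, 6.02% held CACGTG, 3.85% CACGTT, 2.06% TTANGTAA, 1.55% TGACGTCA and 2.23% TAGGTCA. These shares are per promoter, whereas the genes above were counted over all their start sites. The stretches around the matches are given to show where these elements lie in the genes measured, each 5′ to 3′ on the gene's own strand, with the matching letters in capitals (AACGTG is CACGTT read on the other strand).
Per1, chr11:69098743-69098828, plus strand: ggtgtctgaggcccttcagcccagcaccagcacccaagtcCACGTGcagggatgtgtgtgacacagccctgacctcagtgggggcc
Cry1, chr10:85185069-85185173, minus strand: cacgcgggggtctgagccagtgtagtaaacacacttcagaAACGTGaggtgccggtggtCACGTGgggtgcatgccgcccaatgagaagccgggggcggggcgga
Cry2, chr2:92434190-92434275, minus strand: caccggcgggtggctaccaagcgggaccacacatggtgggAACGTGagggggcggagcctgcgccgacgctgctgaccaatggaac
Nr1d1, chr11:98775378-98775445, minus strand: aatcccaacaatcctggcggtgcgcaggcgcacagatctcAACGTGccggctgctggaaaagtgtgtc
Per3, chr4:151044776-151044910, minus strand: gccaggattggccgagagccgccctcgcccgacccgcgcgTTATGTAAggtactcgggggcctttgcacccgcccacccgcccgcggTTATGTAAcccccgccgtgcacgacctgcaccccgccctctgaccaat
A match is a description of letters and was not tested as a binding site here. In the mm10 coordinates of the files, Arntl lies at chr7:113207465-113314122, Clock at chr5:76212177-76304548, Npas2 at chr1:39193731-39363234, Per1 at chr11:69095217-69109960 and Per2 at chr1:91415982-91459324. Per3 lies at chr4:151003652-151044665, Cry1 at chr10:85131702-85185054, Cry2 at chr2:92403646-92434043, Nr1d1 at chr11:98767932-98775333 and Dbp at chr7:45705088-45710155.

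Per unit of transcript length, Nr1d1 and Clock were the most abundant of the 10 and Npas2 the least. Mean RPKM over the 10 libraries (reads per kilobase of exon and per 1000000 reads, as deposited) was 24.5 ± 6.02 for Nr1d1 and 22.3 ± 1.14 for Clock (SD, n = 10). The order of that pair was not fixed between libraries, since Nr1d1 was above Clock in 5 of the 10 libraries. Per1 followed at 13.7 ± 5.76 and Arntl at 9.91 ± 0.781, with Per1 above Arntl in 6 of 10 libraries. Per3 at 8.75 ± 1.81 and Cry2 at 8.71 ± 1.14 lay close together, with Per3 the higher in 6 of 10. Dbp had 7.62 ± 0.749 and Cry1 6.53 ± 1.24, and Dbp was above Cry1 in 9 of 10. Per2, at 4.23 ± 1.75, was below Cry1 in all 10 libraries, and Npas2, at 0.803 ± 0.254, was below Per2 in all 10. Npas2 had 29 to 155 reads in a library, so counting error weighs more on it than on Clock, which had 1901 to 7384.

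Clock and Arntl varied little from mouse to mouse, and Per1 and Per2 varied widely. The highest library exceeded the lowest by 1.15 times for Clock and by 1.34 times for Arntl, against 3.85 times for Per1 and 3.55 times for Per2. The SD of log2 CPM within the groups was 0.08 for Clock, wider than 4.89% of the 16830 genes tested, and 0.11 for Arntl, wider than 18.2%. For Per1 it was 0.68, wider than 98.5% of genes, and for Per2 it was 0.53, wider than 95.6%, while the median gene had 0.18. Against the roughly 500 genes of most similar abundance, Per1 was more spread than 99.6% and Per2 than 98.8%, Clock than 15.2% and Arntl than 23.0%. The other 6 ranged from 0.15 for Dbp to 0.24 for Cry1, with 0.23 for both Npas2, the third activator, and Per3. At similar abundance these 6 differed more. Npas2 was more spread than 31.3% of such genes and Dbp than 45.9%. Cry2 was more spread than 79.6%, Cry1 than 82.8%, Per3 than 90.4% and Nr1d1 than 90.8%. The highest library of Npas2 was 2.41 times the lowest, which includes the difference between the groups, and that of Per3 was 1.84 times the lowest. Dbp, an output gene known for wide daily swings in many tissues, thus had a spread near that of an ordinary gene of these libraries.

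**Figure D1:**
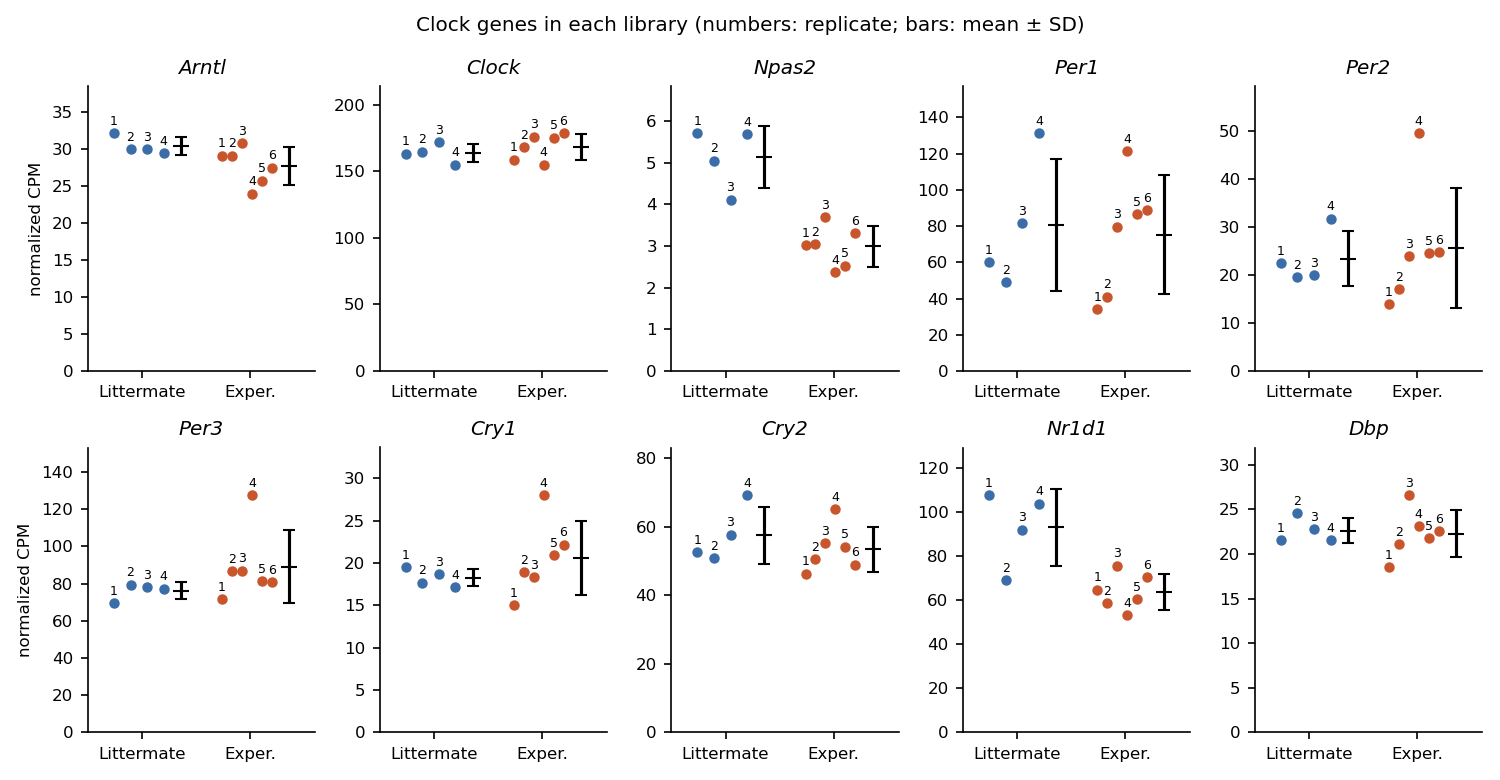
Normalized CPM of each of the 10 clock genes (y axes, linear, from 0) in the 4 Littermate (blue) and 6 Experimental (orange) libraries, with replicate numbers above the points and mean ± SD as bars. Npas2 is the one gene whose groups do not overlap, Experimental 4 stands above the other Experimental libraries for Per2 and Per3, and Per1 spreads widely in both groups.

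Between the groups, the comparison asks whether the Experimental genotype went with another level of clock gene RNA in MC903-treated skin. Since the list was drawn up with such results in view, its values are given as a description. Npas2 and Nr1d1 were lower in the Experimental group, by 0.75 and 0.54 on the log2 scale, and the other 8 genes differed by at most 0.23 in either direction. The small values of Clock, Per1 and Dbp changed sign when the GC content of transcripts was corrected for, and that of Per2 did so with limma voom. In edgeR's quasi-likelihood test over all 16830 genes, 0 of the 10 had a Benjamini-Hochberg adjusted p under 0.05, where 3 genes (0.0178% of those tested) did. At an unadjusted p under 0.05 there were 2 of the 10, Npas2 and Nr1d1, both lower, where 11.8% of all genes tested passed that mark. The ranges of the groups did not overlap for 1 of the 10, Npas2, where this held for 2.12% of all genes tested. The median log2 fold change was -0.06 over the 10 genes and -0.00 over all tested genes. In whole ear tissue, fewer cells of a type and less RNA per cell cannot be told apart, here and in what follows.

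Of the activators, Npas2 alone separated the groups. Its normalized counts were 5.70, 5.05, 4.12 and 5.68 CPM in Littermates 1 to 4, and they ran from 2.36 through a median of 3.04 to 3.69 CPM in the 6 Experimental libraries. Every Littermate library was above every Experimental library. The means were 5.14 ± 0.744 (SD, n = 4) and 2.995 ± 0.491 CPM (n = 6), a log2 fold change of -0.75 (SE 0.15), with an edgeR adjusted p of 0.0834 that did not pass the threshold. Arntl, the shared partner of CLOCK and NPAS2, had 32.1, 30.0, 30.0 and 29.5 CPM in the Littermates and ran from 24.0 through a median of 28.3 to 30.8 CPM in the Experimental libraries. The groups overlapped, and Experimental 4 and 5 held the lowest values. The log2 fold change of Arntl was -0.13 (95% interval -0.30 to 0.05). Clock had 163, 165, 172 and 155 CPM in the Littermates and 155 to 178 CPM in the Experimental libraries, with a median of 172. Its log2 fold change of 0.04 had the narrowest interval of the 10 genes, from -0.10 to 0.18.

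Nr1d1, the repressor of Arntl and Npas2, was lower in most Experimental libraries. Its values were 108, 68.8, 91.8 and 104 CPM in Littermates 1 to 4, and they ran from 53.2 through a median of 62.5 to 75.5 CPM in the Experimental group. The groups overlapped only through Littermate 2, which was below Experimental 3 at 75.5 and Experimental 6 at 70.3 CPM. The means were 93.0 ± 17.4 CPM (SD, n = 4) and 63.7 ± 8.15 CPM (n = 6), a log2 fold change of -0.54 (SE 0.12; adjusted p = 0.107 by edgeR). Its closest relative, Nr1d2, which encodes REV-ERB beta, had 78.3, 96.9, 88.9 and 70.6 CPM in the Littermates and 80.6 to 98.4 CPM in the Experimental libraries, and the log2 fold change was 0.12 (SE 0.09; adjusted p = 0.625 by edgeR). As a ratio of CPM within a library, Nr1d1 to Nr1d2 was 1.37, 0.71, 1.03 and 1.47 in Littermates 1 to 4 and 0.58 to 0.81 in the Experimental libraries. Nr1d1 shares 263 bases of exon, 8.55% of its own, with Thra on the opposite strand, and the protocol mentions no marking of strand, so the 2 genes' reads cannot be separated there. Thra ran from 77.7 to 90.9 CPM in the Littermates and from 63.1 to 79.4 CPM in the Experimental libraries, and its log2 fold change was -0.23 (adjusted p = 0.248 by edgeR). Its correlation with Nr1d1 across the libraries was 0.87, or 0.68 once each group's mean was removed.

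Whether these 2 differences passed the threshold depended on the libraries and the method used. Without Littermate 2, Nr1d1 differed by -0.66 on the log2 scale (adjusted p = 0.0079 by edgeR) and Npas2 by -0.75 (adjusted p = 0.0425), while 343 genes passed in that fit, 2.01% of those tested, against 3 with all libraries. With DESeq2, Npas2 had an adjusted p of 0.0079 and Nr1d1 one of 0.0128, where 227 genes passed, 1.35% of those tested. With no filter beyond 1 count, Npas2 alone of the 10 passed (adjusted p = 0.0457 by edgeR), as 1 of 78 genes. Those were 0.264% of the 29512 genes tested in that fit. With a correction for the GC content of transcripts, neither passed (adjusted p = 0.215 and 0.274 by edgeR). The direction stayed negative in all 18 alternatives run, with log2 fold changes from -0.83 to -0.68 for Npas2 and from -0.66 to -0.44 for Nr1d1.

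The levels of other RNAs are given beside these 2 genes. The summed level of the 7 mitochondrially encoded genes ran from 5460 to 7460 CPM in the Littermates and from 4778 to 6040 CPM in the Experimental libraries. None of its 6 tested members passed after adjustment, 5 were lower at an unadjusted p under 0.05, mt-Nd5 and mt-Cytb had groups that did not overlap, and mt-Co2 was at 0 in every library. Over all genes tested, 11.8% passed the unadjusted mark and 2.12% had groups without overlap, and both shares apply to the marker counts that follow. Littermate 2 had the lowest sum of its group, as it had the lowest Nr1d1. Across the 10 libraries the correlation of the sum with Nr1d1 was 0.85, or 0.63 once each group's mean was removed, and with Npas2 it was 0.66, or -0.07. For the fibroblast markers (Col1a1, Col3a1, Dcn, Pdgfra and Lum) the summed level ran from 6659 to 10871 CPM in the Littermates and from 6900 to 9024 CPM in the Experimental libraries, and its correlation with Npas2 was 0.69, or 0.83 with group means removed. Of its 5 genes 0 passed after adjustment and 1, Col1a1, was lower at an unadjusted p under 0.05. Col1a1 and Col3a1 made up most of the sum, with log2 fold changes of -0.53 and -0.17, whereas those of Dcn, Lum and Pdgfra were 0.03, 0.02 and -0.00. For the T cell markers (Cd3e, Cd3g, Trac, Cd4 and Cd8a) the sums were 26.5 to 35.7 and 24.5 to 33.0 CPM, with a correlation of 0.71 to Npas2, or 0.75 with group means removed, and again 0 of 5 passed and 1, Cd4, was lower at an unadjusted p under 0.05. Cd4 made up most of this sum and had a log2 fold change of -0.43, whereas Cd3e, Cd3g, Trac and Cd8a had 0.16, 0.15, 0.50 and 0.44. The summed macrophage markers (Csf1r, Adgre1, Mrc1, C1qa and Cd68) had a correlation of 0.64 with Npas2, or 0.55 with group means removed. For skeletal muscle (Acta1, Ckm, Myh4, Tnnc2 and Mylpf) it was 0.03, or -0.65. The endothelial markers (Pecam1, Cdh5, Kdr, Emcn and Tek) had 0.56 with Nr1d1, or 0.63. Of each list 0 of 5 passed after adjustment, and 1 macrophage and 2 muscle genes were lower at an unadjusted p under 0.05. The part of these RNAs in the Npas2 and Nr1d1 values was not tested.

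**Figure D2:**
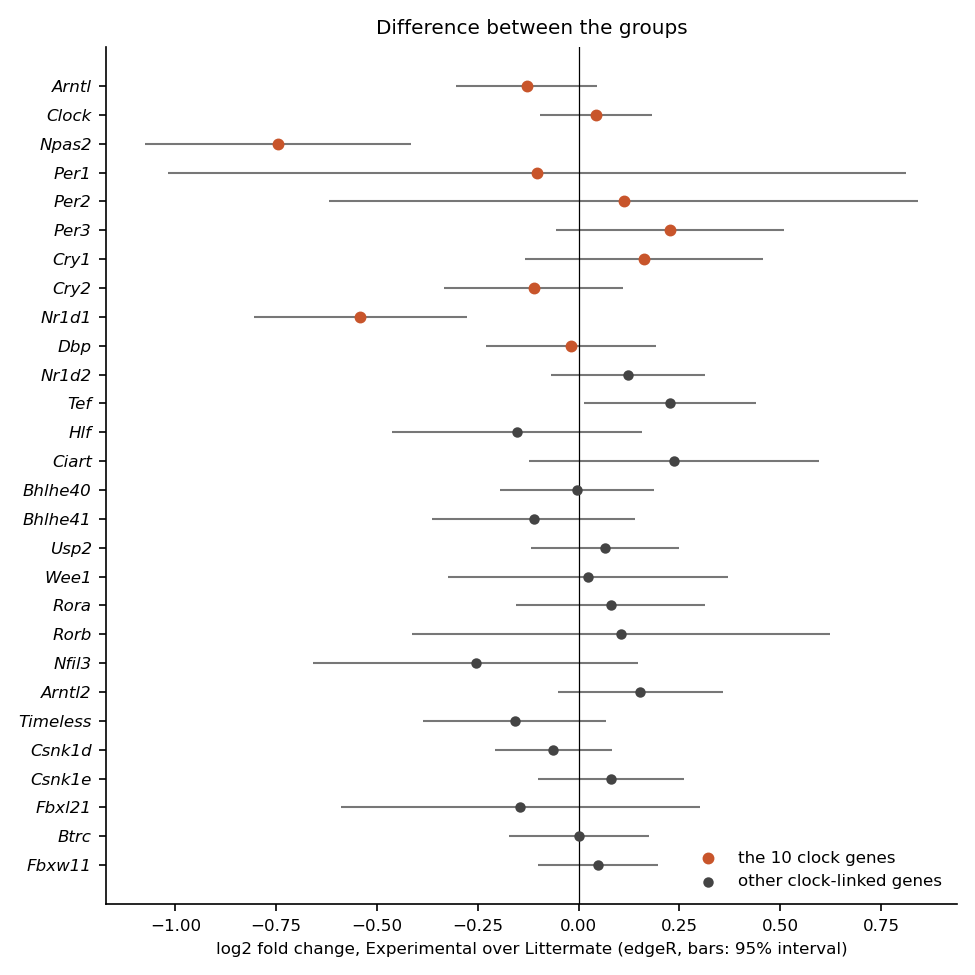
Log2 fold change of Experimental over Littermate (x axis) for the 10 clock genes (orange) and 18 other clock-linked genes (grey), with 95% intervals from edgeR's quasi-likelihood fit. Npas2 at -0.75 and Nr1d1 at -0.54 lie farthest from 0, and the intervals of Per1 and Per2 are the widest of the 10 clock genes.

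The Period genes had no common shift between the groups, and their intervals were wide. Per1 had 59.9, 49.1, 81.6 and 131 CPM in Littermates 1 to 4 and ran from 34.1 through a median of 83.1 to 122 CPM in the Experimental libraries. The groups covered nearly the same range, with Littermate 4 highest and Experimental 1 lowest. The log2 fold change was -0.10 (95% interval -1.02 to 0.81), the widest interval of the 10 genes. Per2 had 22.4, 19.6, 19.9 and 31.7 CPM in the Littermates and ran from 13.9 through a median of 24.2 to 49.5 CPM in the Experimental group. Experimental 4 held the highest value and Experimental 1 the lowest, and the log2 fold change was 0.11 (95% interval -0.62 to 0.84). Per3 had 69.4, 79.5, 78.2 and 77.3 CPM in the Littermates and ran from 71.5 through a median of 84.0 to 128 CPM in the Experimental libraries. Experimental 4 again stood highest, and the log2 fold change was 0.23 (95% interval -0.06 to 0.51).

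The cryptochromes, the partners of PER in the inhibiting complex, overlapped between the groups as well. Cry1 had 19.5, 17.7, 18.7 and 17.2 CPM in Littermates 1 to 4 and 15.0 to 28.0 CPM in the Experimental libraries, with a median of 19.9. The Experimental values enclosed the Littermate values on both sides, and the log2 fold change was 0.16 (95% interval -0.13 to 0.46). Cry2 had 52.5, 50.8, 57.6 and 69.2 CPM in the Littermates and 46.3 to 65.1 CPM in the Experimental libraries, with a median of 52.4 and a log2 fold change of -0.11 (95% interval -0.33 to 0.11). Littermate 4 and Experimental 4 were the highest of their groups for Cry2. Dbp had 21.6, 24.6, 22.8 and 21.5 CPM in the Littermates and 18.5 to 26.6 CPM in the Experimental libraries, with a median of 22.2. Its log2 fold change was -0.02 (95% interval -0.23 to 0.19), so a difference of the size seen for Npas2 lies outside its interval. Dbp shares 491 bases of exon, 16.7% of its own, with Sphk2 on the opposite strand, and Cry2 shares 295 bases, 4.67% of its own, with D930015M05Rik.

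With no hour of collection stated, the phase of the arms could not be read from these libraries. Described instead is how the genes moved together over the 10 libraries, as deviations of log2 CPM from each gene's mean. The Period genes as an arm (mean of Per1, Per2 and Per3) were highest in Experimental 4, at 0.83, and in Littermate 4, at 0.41. They were lowest in Experimental 1, at -0.67, and Experimental 2, at -0.39. Both extremes of this arm therefore fell within the Experimental group. The activator arm (Arntl, Clock and Npas2) was lowest in Experimental 4, at -0.33, where the Period arm was highest, but in Experimental 1, where the Period arm was lowest, it was at -0.11 and not high. In Littermate 4 both arms were above their means, the activators at 0.18. That activator value came from Npas2 at 0.61, while Arntl was at 0.04 and Clock at -0.10. In Experimental 1 Npas2 was at -0.28, Arntl at 0.02 and Clock at -0.07. The mean of the activator arm thus followed Npas2 more than the other activators in these libraries. The cryptochrome arm was highest in Experimental 4, at 0.39, and lowest in Experimental 1, at -0.30, the same libraries as for the Period genes.

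**Figure D3:**
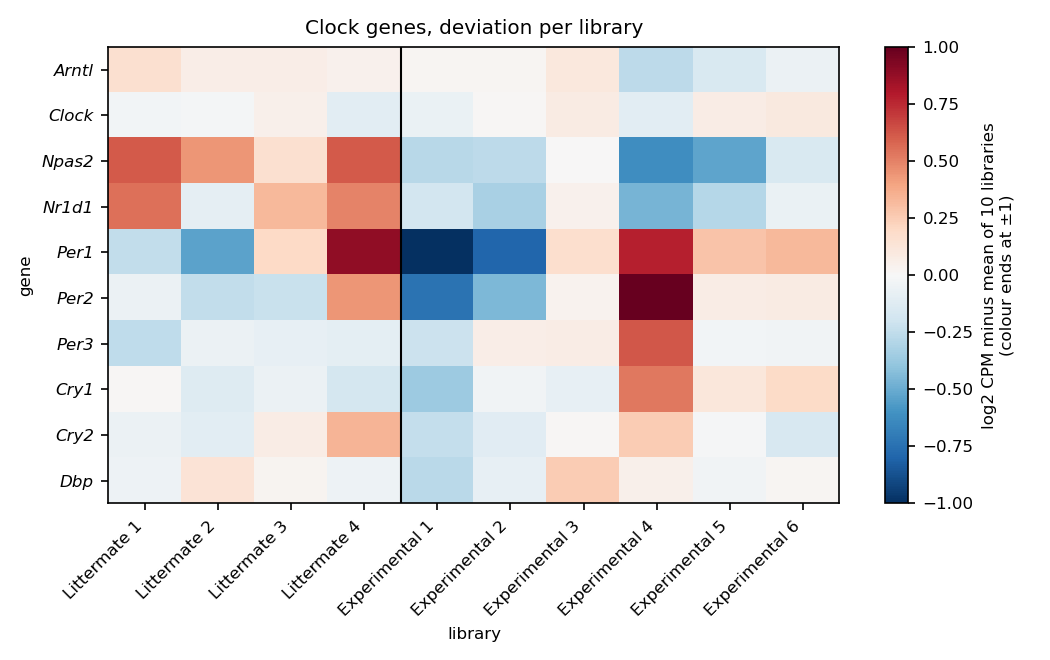
Deviation of log2 CPM from the mean of the 10 libraries (colour, ending at ±1) for the 10 clock genes (rows) in each library (columns), Littermates left of the line. Experimental 4 is high for all Per and Cry genes and low for Arntl, Npas2 and Nr1d1, and Experimental 1 is low for all Per and Cry genes.

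Within the repressor arm, the Per and Cry genes were positively correlated over the 10 libraries, and for some pairs this rested on the extreme libraries. Pearson correlations are given here over 10 libraries with no p, since the relation is the one for which the genes were listed. All 10 pairs among Per1, Per2, Per3, Cry1 and Cry2 were positive, from 0.36 to 0.87 with a median of 0.76, and from 0.50 to 0.88 once group means were removed. Spearman correlations were positive for all 10 pairs too, from 0.09 to 0.95. Per1 with Per2 had 0.87, or 0.78 without the 2 libraries farthest from the median of Per1 (Experimental 1 and 2). Per1 with Cry2 had 0.83, or 0.79 without those 2 libraries. The pairs with Per3 leaned on 1 library: Per2 with Per3 went from 0.74 to 0.17 without Experimental 4. Without the 2 libraries farthest from the median of the first gene of each pair, 7 of the 10 pairs were positive and 3 negative, with a median of 0.45 and the lowest at -0.59 for Cry1 with Cry2. Without Experimental 4, 9 of the 10 pairs were positive, with a median of 0.39 and a lowest value of -0.03. Without both Experimental 4 and Littermate 4, all 10 were positive, with a median of 0.45. Dbp was positive with all 5 Per and Cry genes, at 0.27 to 0.41, and 3 of these 5 turned negative without the 2 libraries farthest from the median of the Per or Cry gene.

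Between the arms, Arntl ran opposite to the Per and Cry genes, and this rested on Experimental 4. Its correlations were -0.74 with Per3, -0.73 with Cry1, -0.60 with Per2, -0.43 with Per1 and -0.28 with Cry2, and -0.71 to -0.57 once group means were removed. Spearman correlations were weaker, with 4 of 5 negative and a median of -0.36. Without Experimental 4 the Pearson correlations ran from -0.40 to 0.12, with a median of -0.20. Without the 2 libraries farthest from the median of Arntl (Experimental 4 and 5) they ran from -0.31 to 0.23, and 3 of 5 were negative. Over all 15 pairs of an activator with a Per or Cry gene, 12 were negative, or 15 of 15 with group means removed, but 7 of 15 without Experimental 4. The 5 correlations of Clock with Per and Cry genes ran from -0.45 to 0.05 over all libraries. They ran from -0.28 to 0.75 with a median of 0.20 without Experimental 4, and from 0.50 to 0.87 without both Experimental 4 and Littermate 4.

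Nr1d1 was positively correlated with Npas2 and Arntl but not with Clock (r = -0.08, rho = 0.01). Its correlations with the 5 Per and Cry genes ran from -0.61 to 0.26, with 3 of 5 negative. Without Experimental 4 they ran from -0.51 to 0.63 with a median of 0.50, and 3 of 5 were positive. Without both Experimental 4 and Littermate 4 they ran from -0.54 to 0.44, and 4 of 5 were positive. The correlations with Npas2 and Arntl were 0.88 and 0.72. With group means removed the latter were 0.63 and 0.54, so part of each came from the difference between the groups. Arntl and Npas2 had 0.79, or 0.76 with group means removed and 0.59 without Experimental 4 and 5. Among 14221 other genes whose mean reached 1 CPM, ranked by correlation with Arntl, Npas2 was 34th and Nr1d1 119th from the top, and Per3 was 84th and Cry1 106th from the bottom. Clock, the partner of ARNTL, had a correlation of 0.11 with Arntl, in a gene that varied little.

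**Figure D4:**
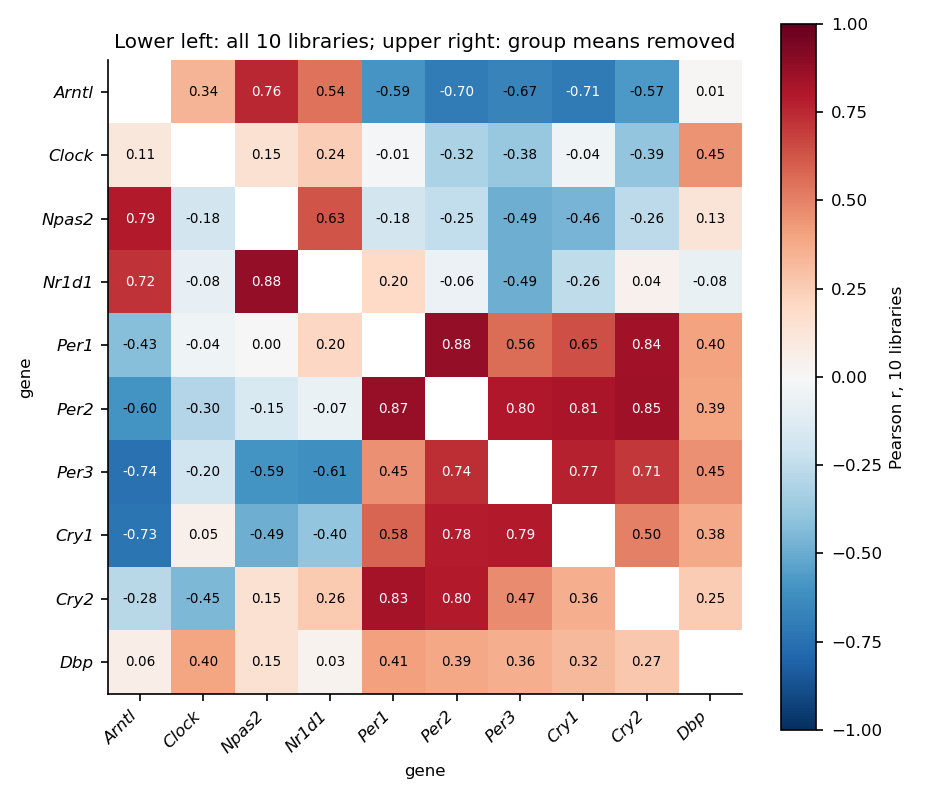
Pearson correlation between the 10 clock genes over 10 libraries (colour and number; log2 CPM), with all libraries at lower left and with group means removed at upper right. The Per and Cry block is positive throughout, Arntl is negative with all 5 of its genes, and Nr1d1 is positive with Arntl and Npas2.

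The genes whose pattern was most like that of Arntl were not clock genes. Over the 10 libraries the highest Pearson correlations with Arntl were those of Kif3a (0.94), a kinesin motor subunit, Arhgap22 (0.91), Purg (0.90), Bcl6b (0.88) and Hist2h2be (0.88), a histone H2B gene. The lowest were those of Ddx56 (-0.91), Alkbh1 (-0.91), Gpr171 (-0.91), Rcl1 (-0.89) and Tbce (-0.86). For Dbp the highest were Mob1b (0.90), Cd46 (0.90), Ift46 (0.89), Ecpas (0.88) and Mbtd1 (0.88), and the lowest Cemip (-0.91), Msrb2 (-0.90), Syngr2 (-0.89), Nicn1 (-0.88) and Ttf2 (-0.87). These are the extremes of 14222 genes over 10 libraries and carry no test. Of the clock-linked genes, Rora, a nuclear receptor that activates Arntl, ranked 11th from the top for Dbp at 0.84, and Hlf, a relative of DBP, ranked 96th at 0.74. Others of that list went the other way, with Arntl2 at -0.57 (525th from the bottom), Rorb at -0.56 (614th) and Csnk1d at -0.45. Of the targets of the loop besides Hlf, Tef had 0.59 (451st from the top), Nr1d2 0.58 (490th), Wee1 0.52 (771st), Ciart 0.36 and Usp2 0.09. Bhlhe41 and Bhlhe40, also targets, had -0.06 and -0.31. Most of these targets were thus positive with Dbp, whereas the clock-linked genes as a whole were of mixed sign.

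The 18 other clock-linked genes were all expressed and none passed between the groups. By edgeR's test with adjustment over all genes, 0 of 18 passed, with a lowest adjusted p of 0.391, and no gene's groups were without overlap. At an unadjusted p under 0.05, which 11.8% of all genes tested passed, there was 1, Tef, a D-box binding relative of DBP, at 181.8 ± 23.0 CPM in Experimental (SD, n = 6) against 155 ± 16.6 in Littermate (n = 4), a log2 fold change of 0.23. Of the 18, 11 had a fold change above 0 and 7 below, with a median of 0.04. The 8 targets of the loop (Nr1d2, Tef, Hlf, Ciart, Bhlhe40, Bhlhe41, Usp2 and Wee1) ran from -0.15 for Hlf to 0.24 for Ciart, a repressor of CLOCK and ARNTL. The ROR and NFIL3 arm (Rora, Rorb and Nfil3) ran from -0.26 for Nfil3, a repressor at D-boxes, to 0.11 for Rorb. The 7 paralogues and turnover genes (Arntl2, Timeless, Csnk1d, Csnk1e, Fbxl21, Btrc and Fbxw11) ran from -0.16 for Timeless to 0.15 for Arntl2. Csnk1d and Csnk1e encode the kinases that mark PER for turnover, and their log2 fold changes were -0.06 and 0.08.

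Arntl was tested against 7 of these genes across libraries. By a two-sided permutation test with 100000 resamples and adjustment over the 7 relations, 0 passed at 0.05, while 2 had an unadjusted p under 0.05 by Pearson correlation. Tef had r = -0.65 (permutation p = 0.0425, adjusted 0.154) and rho = -0.49 (permutation p = 0.153, adjusted 0.515), and r was -0.42 without the 2 libraries farthest from the median of Arntl. Ciart had r = -0.64 (permutation p = 0.0439, adjusted 0.154) and rho = -0.43 (permutation p = 0.221, adjusted 0.515), and r was -0.22 without them. Neither kept its size without those 2 libraries, Experimental 4 and 5.

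Among 10 glucocorticoid-responsive genes, Per1 correlated most closely with Tsc22d3, Klf9 and Errfi1, by Pearson and by Spearman correlation alike. The family tested was picked after the values of Per1 were seen, and it holds these 10 and 8 immediate early genes. An adjustment over its 18 relations cannot cover that choice. Its p-values are therefore a description, and no conclusion is drawn from them. A relation is said to pass only in the sense of an adjusted p under the threshold. Per1 correlated with Tsc22d3 (also called GILZ, a glucocorticoid-induced regulator of inflammation) at r = 0.92 (permutation p = 0.00015, adjusted over 18 relations 0.0027) and rho = 0.77 (permutation p = 0.0126, adjusted 0.0754). Klf9, a glucocorticoid-induced transcription factor, had r = 0.87 (permutation p = 0.00117, adjusted 0.0105) and rho = 0.87 (permutation p = 0.00211, adjusted 0.021). Errfi1, an inhibitor of the EGF receptor, had r = 0.80 (permutation p = 0.00531, adjusted 0.0319) and rho = 0.87 (permutation p = 0.00233, adjusted 0.021). Without the 2 libraries farthest from the median of Per1 (Experimental 1 and 2) the 3 values of r were 0.81, 0.71 and 0.74, and 0 relations passed over the 8 libraries left, with r = 0.19 for Fkbp5 and -0.10 for Cdkn1a. The other 7 glucocorticoid-responsive genes had r from 0.30 for Cdkn1a to 0.73 for Zbtb16 and did not pass. The 8 immediate early genes had r from -0.60 for Junb to 0.43 for Egr1, with Fos at -0.04, and did not pass.

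Library by library, Tsc22d3 had 159, 167, 226 and 228 CPM in Littermates 1 to 4 and was lowest in Experimental 1 and 2, at 104 and 113 CPM, and highest in Experimental 4, at 328 CPM. Experimental 1 and 2 were thus low for Per1 and for Tsc22d3 alike, and Experimental 4 was high for both. Ranked among 14221 other genes by correlation with Per1, Tsc22d3 was 3rd, Per2 11th, Klf9 12th and Cry2 26th from the top. Others of the same lists ranked lower. Among the clock genes Cry1 was 718th, Per3 1556th, Dbp 1985th, Nr1d1 4189th, Npas2 6677th, Clock 7282nd and Arntl 12363rd. Among the glucocorticoid-responsive genes Errfi1 was 59th, Zbtb16 163rd, Dusp1 176th, Mt1 205th and Mt2 270th. Sgk1 was 327th, Fkbp5 571st and Cdkn1a 3141st. Of all genes ranked, the highest was Ica1l (0.95), and the lowest was Snrnp35 (-0.96). The summed keratinocyte markers (Krt5, Krt14, Krt1, Krt10 and Dsg1a, of which 0 of 5 passed between the groups) had a correlation of -0.76 with Per1, or -0.77 with group means removed, and their part in the relation was not tested. Between the groups, 0 of the 10 glucocorticoid-responsive genes passed by edgeR after adjustment and 1 was lower at an unadjusted p under 0.05, Cdkn1a, whose groups did not overlap and whose log2 fold change was -0.35. Of the 8 immediate early genes 0 passed, and 5 were lower at an unadjusted p under 0.05, where 11.8% of all genes tested passed that mark. These were Jun (-0.24 on the log2 scale, with groups that did not overlap), Fosb (-0.76), Egr1 (-0.50), Atf3 (-0.43) and Fos (-0.41). Their part in the Npas2 and Nr1d1 values was not tested.

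**Figure D5:**
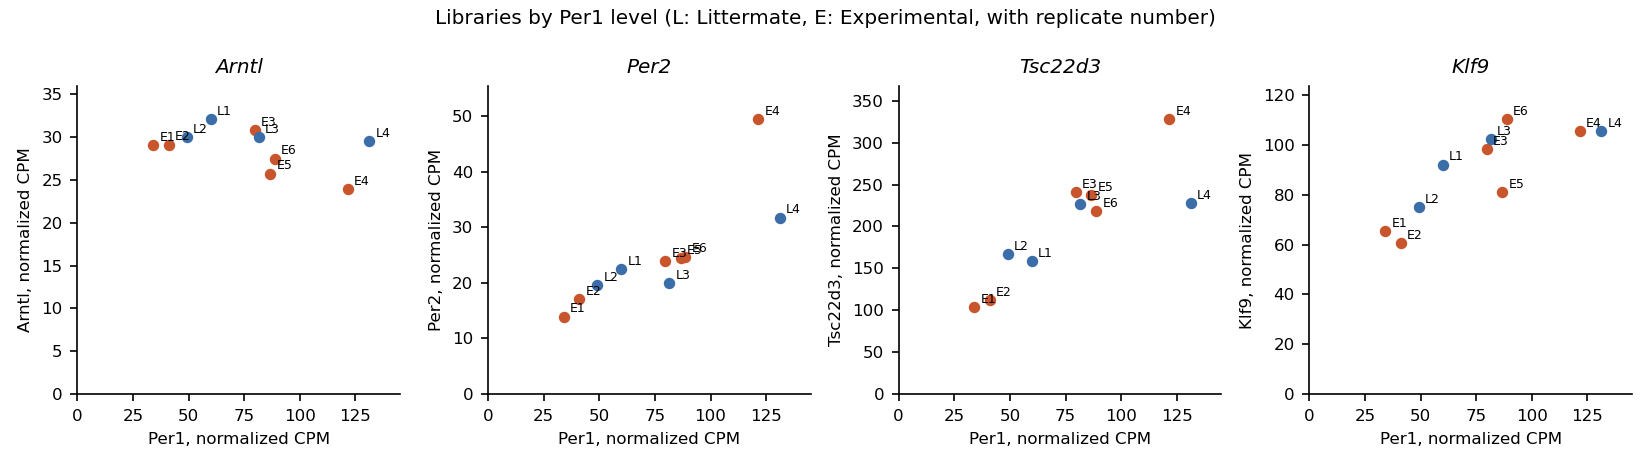
Normalized CPM of Arntl, Per2, Tsc22d3 and Klf9 (y axes) against that of Per1 (x axes) in each library (L, Littermate; E, Experimental; number, replicate). Per2, Tsc22d3 and Klf9 are higher where Per1 is higher, in both groups, whereas Arntl is flat apart from Experimental 4, 5 and 6, with Experimental 4 the lowest at 24.0 CPM.

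Total counts ran from 12865459 to 14324433 in the Littermates and from 11520348 to 41935183 in the Experimental libraries, so that 3 reads were worth 0.0715 to 0.260 CPM. Of the 2 libraries lowest for the Period arm, Experimental 1 had 17847542 reads and Experimental 2 had 36911819, and Experimental 4, the highest, had 11986925. The part of depth in that arm was not tested. The skin label fits the markers, with summed keratinocyte genes at 27215 to 31801 CPM in the Littermates and 24939 to 32581 CPM in the Experimental libraries, and genes of muscle, cartilage and fat were present too, as a whole ear holds them. The libraries carry separate labels as replicates, but the labels do not describe how mice were kept or sampled. P-values therefore measure the spread between these libraries.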

How the data were processed

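RNA of whole ear skin was sequenced from 10 labelled libraries (4 Littermate, 6 Experimental); ribosomal RNA was removed, random hexamers primed the cDNA and single reads of 50 bases were sequenced, per the labels' protocols. STAR 2.0.4b, Subread and featureCounts 1.4.5 with mm10 were used, per the submitters' processing notes; no source used here states the strand setting or the treatment of shared reads. The deposited files give a read count per Ensembl gene, and beside it the authors' CPM and RPKM, per the file headers. Counts entered the tests, RPKM only the order of levels. Symbols were matched for 97.3% of 41388 identifiers.

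edgeR 4.0.16 (TMM, filterByExpr, robust quasi-likelihood test, two-sided) was fitted to all 10 libraries with group as the term and adjusted over 16830 genes at 0.05. Relations used log2 CPM with a prior count of 2 and scipy 1.17.1. Alternatives were other size factors, filters and prior counts, DESeq2 1.42.0, limma 3.58.1 voom, GC correction, a replicate block and left-out libraries. The fit and the permutation test were first tested on simulated data. The 10 genes, the other lists and the tests were chosen with earlier results of these data known. Named are the 10 genes, 18 clock-linked genes (others of that list are not reported here) and the 5 highest and 5 lowest correlates of Arntl and Dbp; the Per1 family, its correlates and the targeted genes were added after values were seen.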

Additional observations from a re-analysis of the deposited data

Results flagged for a closer look

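In each group, the highest and the lowest library of each of the 28 clock-linked genes was compared with its nearest neighbour by Dixon's ratio, and 3 of 56 groups had a library that stood apart at the 95% level, where chance gives about 5% of groups. Per2 in Experimental 4 was 49.5 CPM, and the next highest Experimental library had 24.7 CPM. Per3 in the same library was 128 CPM, with 87.0 CPM next. Fbxl21, a gene of cryptochrome turnover with few reads, was 0.929 CPM in Experimental 6, with 1.43 CPM next above it. Of the 3, 2 lay in Experimental 4, the library on which the opposite movement of Arntl and the Per and Cry genes rested. The same Per2 and Per3 values enter that relation, so these flags add no separate evidence on it.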

How the results depend on the processing

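The number of genes passing between the groups was 3 with TMM size factors and stayed at 3 or 4 with RLE factors, library totals, a minimum of 1 CPM, limma voom and GC correction. It was 78 with no filter beyond 1 count, 227 with DESeq2 and 67 with the replicate number as a block, and it ran from 3 to 343 when each library was left out (343 without Littermate 2, 28 without Experimental 6, 8 without Littermate 3). At an unadjusted p under 0.05, 720 genes were higher and 987 lower with GC correction, against 615 and 1363 without it. Same-numbered libraries of the 2 groups did not deviate together over all genes (correlations of 0.03, -0.02, 0.09 and -0.02). The labels do not say whether the numbers pair the mice. These correlations cannot exclude a pairing that touches few genes. Under the replicate block none of the 10 clock genes passed.

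Npas2 and Nr1d1 kept their direction in all 18 alternatives, with adjusted p from 0.0079 to 0.345 for Npas2 and from 0.0079 to 0.45 for Nr1d1, and so did Arntl, Per3 and Cry1, none of which passed in any. Several small fold changes, none past the threshold, changed sign, and the cause was not tested. With GC correction the log2 values were -0.026 for Clock, 0.053 for Per1, 0.14 for Dbp and -0.068 for Btrc, and with limma voom -0.014 for Per2 and -0.018 for Wee1. Bhlhe40 was 0.00080 with RLE factors, 0.015 with library totals, 0.0074 with no filter, 0.00076 with DESeq2 and 0.0033 with voom. Btrc was -0.0044 at a minimum of 1 CPM and -0.017 with the replicate block. Leaving out each library in turn gave -0.28 to 0.25 for Per1, -0.17 to 0.30 for Per2, -0.17 to 0.00055 for Cry2, -0.070 to 0.037 for Dbp, -0.081 to 0.095 for Bhlhe40, -0.10 to 0.099 for Wee1, -0.040 to 0.28 for Rorb and -0.028 to 0.031 for Btrc.

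Of the relations of Arntl with 7 other clock-linked genes, 0 passed, and 0 to 1 when each library was left out (Tef, without Experimental 3). Arntl with Nr1d2 became 0.0078 without Experimental 4 and 5, and with Bhlhe41 -0.025 without Littermate 4 and Experimental 4. Leaving out each library gave -0.012 to 0.52 for Bhlhe41 and -0.28 to 0.034 for Nfil3. Of the relations of Per1 with 18 genes, 3 passed, a description only, since the family was picked after values were seen. The count was 8 with group means removed, 0 without Experimental 1 and 2, and 1 without Littermate 4 and Experimental 4. It was 2 to 7 when each library was left out (7 without Experimental 5, 5 without Littermate 1). Without Experimental 1 and 2, Cdkn1a had -0.10 and Jun -0.12. Without Littermate 4 and Experimental 4, Fosb had -0.20, Jun -0.10 and Nr4a1 -0.10. Leaving out each library gave -0.18 to 0.19 for Fos and -0.16 to 0.25 for Jun. Of the 10 clock genes, Npas2 had the fewest reads, 29 in its lowest library, and of the others Fbxl21 had 16 and Rorb 27.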
